A study of Homo sapiens with 12 samples.

Results

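The clustered histone genes were described in RNA sequencing data of HaCaT, a human keratinocyte line that grows without limit. The extraction text in the labels speaks of mouse epidermis instead, and the cell label was followed. Members were the genes whose symbols begin with H2AC, H2BC, H3C, H4C or H1- and a digit, with symbols ending in P, which mark pseudogenes, left out. The rule found 67 of the 22545 gene symbols in the deposited table, and no matching symbol ended in P. They were 10 H1, 15 H2A, 17 H2B, 13 H3 and 12 H4 symbols. RefSeq places 50 of them on chromosome 6 and 11 on chromosome 1, where the large histone clusters lie, and 6 elsewhere. H1-10, H2BC12L and H1-10-AS1 were among those elsewhere. H1-10-AS1 fits the symbol rule but is an antisense RNA that overlaps H1-10, and no label states whether the counting used strand, so reads of this pair cannot be told apart.

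The study had 4 groups of 3 libraries, all from HaCaT cells labelled wild type and of 1 batch. ML cells received M5 with lefamulin, MR cells received M5 with retapamulin, M5 cells received M5 alone, and WT cells were untreated. M5 is a name in use for a cytokine mix that gives keratinocytes psoriasis-like features; the labels used here do not state its content, the doses, the times or any solvent control. Both compounds are antibiotics of the pleuromutilin class with the same tricyclic core and different side chains. HaCaT is an immortalised line that divides in culture, which limits it as a model of normal epidermis, and the labels do not say whether the 3 libraries of a group came from separate cultures, so p-values measure the spread between these libraries, which may be technical.

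Histones H2A, H2B, H3 and H4 form the core around which DNA is wound, and H1 is the linker histone that binds where DNA enters and leaves it. Most genes in the clusters are transcribed in S phase, when newly copied DNA has to be packaged, and their mRNAs end in a conserved stem-loop bound by SLBP in place of a poly(A) tail. Some of these genes can also give longer, polyadenylated transcripts. H1-10 lies outside the clusters, and its mRNA carries a poly(A) tail.

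The stem-loop is shown because it sets this gene family apart from other mRNAs. A stem-loop of 16 bases was found in GENCODE release 29 transcripts of 28 of the 61 cluster genes. The most common form was carried by 15 genes, 5 H2A, 7 H2B and 3 H3. Capitals mark the bases that differ from it, and positions count from 1 at the 5′ end.
most common form: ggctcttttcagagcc
H2BC4, H2BC5, H2BC7 and H3C8: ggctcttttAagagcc
H2AC11: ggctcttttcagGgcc
H3C6: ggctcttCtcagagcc
H4C2, H4C5, H4C8 and H4C11: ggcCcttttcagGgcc
H4C9, H4C14 and H4C15: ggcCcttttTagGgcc
H3C6 was the only gene among the 28 with the substitution T8C. Both H4 forms carried T4C and A13G. Transcripts of 20 of these genes ran at least 100 bases past the stem-loop, H3C6 by 1862 bases and H2BC21 by 1729 bases, and 8 ended near it. No stem-loop was found in the transcripts of the other 33 cluster genes, H2BC12 and H1-2 among them, which says only that these letters are not in those annotated transcripts.

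The promoters shown are those of H3C6, which rose after both compounds, of H2BC12, which had the most counts in the clusters, and of H2BC21, which starts 236 bases from H2AC20 on the other strand. Each runs from 250 bases before to 50 bases after a RefSeq start (GRCh38.p14), 5′ to 3′ on the strand of its gene. Capitals mark matches on either strand to the octamer ATTTGCAT, the CCAAT box CCAAT, the TATA box TATAAA and GGTCCG, the core of a site that HINFP binds in H4 promoters; matches can overlap.
H3C6, downstream one of its RefSeq starts, chr6:26224885-26225184, plus strand: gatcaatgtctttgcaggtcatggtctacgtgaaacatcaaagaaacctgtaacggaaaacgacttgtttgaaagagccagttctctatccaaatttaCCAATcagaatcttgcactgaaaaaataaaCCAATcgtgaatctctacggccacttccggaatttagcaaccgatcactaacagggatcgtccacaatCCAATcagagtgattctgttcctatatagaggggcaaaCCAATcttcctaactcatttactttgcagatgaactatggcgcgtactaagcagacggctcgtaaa
H2BC12, chr6:27146806-27147105, minus strand: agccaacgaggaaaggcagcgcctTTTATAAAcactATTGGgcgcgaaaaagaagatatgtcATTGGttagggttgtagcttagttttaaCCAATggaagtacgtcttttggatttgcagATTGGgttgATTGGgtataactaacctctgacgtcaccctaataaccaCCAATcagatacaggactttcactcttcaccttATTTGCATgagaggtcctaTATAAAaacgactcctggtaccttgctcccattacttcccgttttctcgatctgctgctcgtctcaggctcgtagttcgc
H2BC21, chr1:149886633-149886932, minus strand: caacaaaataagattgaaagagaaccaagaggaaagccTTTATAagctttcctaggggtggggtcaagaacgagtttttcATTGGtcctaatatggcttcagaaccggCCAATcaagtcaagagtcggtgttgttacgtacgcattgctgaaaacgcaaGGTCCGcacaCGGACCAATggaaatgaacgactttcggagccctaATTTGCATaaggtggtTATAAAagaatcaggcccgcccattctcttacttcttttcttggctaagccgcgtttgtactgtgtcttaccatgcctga
RefSeq promoters were at hand for 59 members, with 64 starts in all. The octamer, which POU2F1 binds, was in 10 of 14 H2A and 14 of 18 H2B promoters, in 1 of 13 H3 promoters and in 0 of 9 H1 and 0 of 10 H4 promoters, against 1.77% of all 35116 promoters. The H3 match lay in a window of H3C4 that is the same as the window of H2AC7. H2BC5 and H2BC12 each entered with overlapping windows from separate starts. Windows of H2A and H2B genes that start close together on opposite strands can hold the same match. CCAAT was in every H2A, H2B and H3 promoter searched and in 2 of 10 H4 promoters, against 34.6% of all promoters. GGTCCG was in 10 of 10 H4 promoters, against 11.3% of all. TATAAA was in 64.1% of the members' promoters, against 11.5% of all. The printed H3C6 window held 4 CCAAT matches and no octamer, TATAAA or GGTCCG, while that of H2BC12 held 6 CCAAT matches, 1 octamer and 3 TATAAA matches.

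Library totals were alike, from 35110519 to 37520999 counts, and 14207 genes passed the filter on low counts. Levels are given as CPM, counts scaled to the TMM-adjusted library total, whose factors were 0.975 to 0.982 in ML, 0.915 to 0.931 in MR, 1.00 to 1.02 in M5 and 1.09 to 1.11 in WT. KRT5, a keratin of basal keratinocytes, averaged 454 CPM in ML, 436.5 in MR, 637 in M5 and 1631 in WT, and KRT14, its partner, averaged 0.796 CPM in ML, 0.730 in MR, 3.43 in M5 and 8.52 in WT, low for a keratin that marks basal keratinocytes. The 12 keratinocyte markers summed to 5963 to 6160.2 CPM in ML, 7017 to 7201 in MR, 4416 to 4556 in M5 and 3958.5 to 4064.5 in WT. Of these 12, 8 were higher and 3 lower in M5 than in WT, against 28.3% and 26.9% of all genes tested. In ML against M5, 7 were higher and 5 lower, against 33.6% and 34.3% of all genes. In MR against M5, 6 were higher and 5 lower, against 34.1% and 38.0%. Marker lists of fibroblasts, melanocytes, leukocytes and endothelium had 2 tested genes each. The 8 fibroblast markers summed to 15.4 to 17.0 CPM in ML, 9.34 to 11.1 in MR, 5.63 to 6.92 in M5 and 7.17 to 7.94 in WT, and the 6 melanocyte markers in the table to 14.5 to 16.1, 19.5 to 21.4, 9.94 to 12.7 and 25.4 to 27.3 in the same groups. The 7 leukocyte markers in the table summed to 39.5 to 42.9 CPM in ML, 74.9 to 84.5 in MR, 29.9 to 31.3 in M5 and 12.2 to 14.0 in WT, and the 3 endothelial ones to 118 to 123, 99.8 to 115, 117 to 122 and 14.6 to 16.7 in the same groups. CD68 and CDH5 made up most of the leukocyte and endothelial sums, and PTPRC, PECAM1 and MLANA, which define leukocytes, endothelium and melanocytes, were under 0.02 CPM in each group's mean. VWF, another endothelial marker, was called higher in ML and in MR than in M5, and lower in M5 than in WT. CDH5, the other tested one, was not called in ML against M5, was lower in MR than in M5 and higher in M5 than in WT. The median log2 fold change of these 2 markers, 2.67 in ML and 2.54 in MR against M5, therefore joins unlike changes. The part of these markers in the results was not tested.

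Of the 67 members, 27 passed the filter, 4 H1, 7 H2A, 8 H2B, 4 H3 and 4 H4. The 40 others had 1 to 65 counts each over the 12 libraries and 701 in all, against 116766 in the 27 and were not tested. A gene could pass through 3 libraries alone, such as those of 1 group, which favours genes that differ between groups. The counts below therefore describe the 27 and are read beside those of all genes tested. The cutoff was 0.274 CPM, which 3 of the 27 reached in every library of 1 group only and 4 in every library of no group. In 11 members every library of every group reached it. Among them were H1-2, H1-10, H2AC6, H2BC4, H2BC5, H2BC11, H2BC12, H2BC21, H3C6 and H4C8.

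Reads from the clusters were fewest in MR. The 61 cluster genes summed to 77.2 ± 1.88 CPM in ML, 41.5 ± 2.49 in MR, 63.5 ± 0.338 in M5 and 77.9 ± 2.04 in WT (SD, n = 3 each). The 3 MR libraries lay between 39.9 and 44.4 CPM, below all other libraries, and the ML and WT libraries overlapped. Without H3C6 the sums were 64.3 CPM in ML, 34.6 in MR, 61.4 in M5 and 75.8 in WT. Per length, the deposited FPKM values summed to 82.5 ± 3.05 in ML, 42.0 ± 3.39 in MR, 80.3 ± 1.52 in M5 and 110 ± 3.39 in WT. The ML libraries thus overlapped WT in CPM and lay below it in FPKM. These scales differ in more than length, because CPM is TMM-adjusted and the deposited FPKM uses library totals alone. On library totals alone and with no division by length, the cluster genes summed to 74.4 to 77.3 CPM in ML. On that scale they summed to 82.0 to 87.5 CPM in WT, so ML lay below WT there too. H2BC12, an H2B gene, held 39% ± 1.9 of the cluster CPM in ML, 40.1% ± 2.59 in MR, 50% ± 2.22 in M5 and 46.0% ± 0.400 in WT. In bulk libraries a smaller share of cells in S phase and less histone RNA per cell cannot be told apart.

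**Figure D1:**
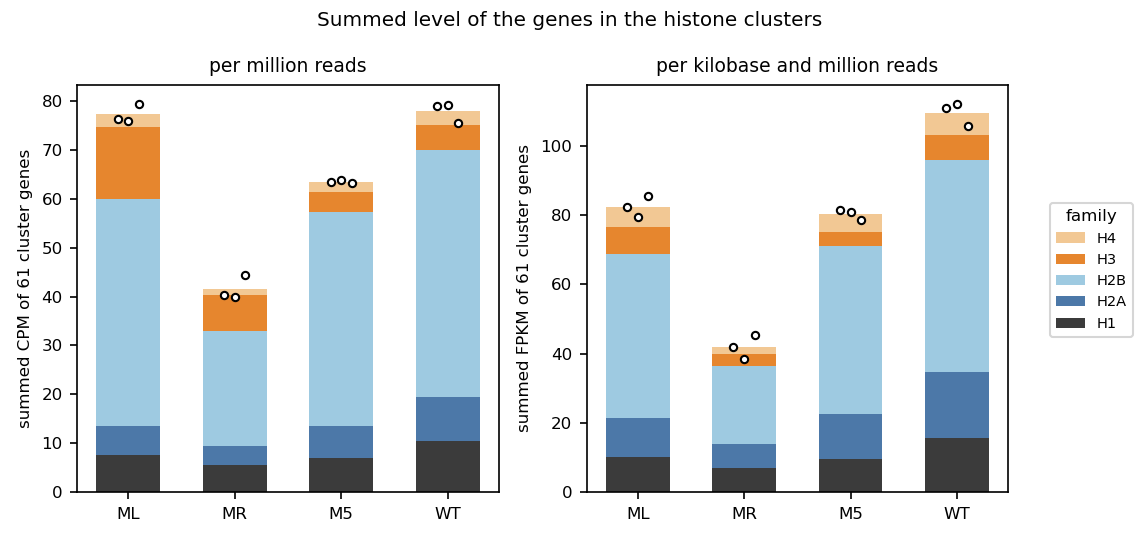
Stacked bars give the mean summed level of the 61 cluster genes by family in ML, MR, M5 and WT, in CPM (left) and in deposited FPKM (right), and open points give the 3 libraries of each group. MR had the lowest total on both scales, 41.5 CPM and 42.0 FPKM, and H3 took a larger part of the CPM in ML and MR than in M5 and WT.

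In CPM all families except H3 were lowest in MR. H2B genes summed to 46.5 ± 1.75 CPM in ML, 23.5 ± 1.94 in MR, 43.8 ± 1.47 in M5 and 50.5 ± 2.44 in WT. H2A genes summed to 5.91 ± 0.117 CPM in ML, 3.86 ± 0.0863 in MR, 6.62 ± 0.613 in M5 and 8.90 ± 0.331 in WT. H4 genes summed to 2.60 ± 0.461 CPM in ML, 1.13 ± 0.315 in MR, 2.18 ± 0.136 in M5 and 2.80 ± 0.931 in WT. The H2A, H2B and H4 libraries of MR did not overlap those of any other group. H3 genes ran otherwise in CPM, at 14.5 ± 0.491 CPM in ML, 7.41 ± 0.492 in MR, 3.94 ± 0.329 in M5 and 5.11 ± 0.524 in WT, and H3C6 held most of the sum in ML and MR. In FPKM the direction between MR and M5 turned, with H3 sums of 7.68 ± 0.240 in ML, 3.25 ± 0.0783 in MR, 4.15 ± 0.329 in M5 and 7.10 ± 1.04 in WT, so that H3 too was lowest in MR per length. Within the clusters, H1 genes summed to 7.63 ± 0.598 CPM in ML, 5.62 ± 0.651 in MR, 6.95 ± 1.34 in M5 and 10.5 ± 1.25 in WT.

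Lefamulin and retapamulin, the only pair of compounds in the study, were compared directly by ML against MR, and the labels used here do not state whether their doses matched. Of the 27 tested members, 18 were higher in ML than in MR and 0 lower by edgeR's quasi-likelihood test at an adjusted p under 0.05, against 18.8% and 21.2% of all genes tested. At an unadjusted p under 0.05, 19 were higher and 0 lower. DESeq2 called 17 higher and 0 lower, and limma on log2(FPKM + 1) 19 and 0. A fit of only these 2 groups called 13 higher and 0 lower. The members' median log2 fold change was 1.14, against 0.01 over all genes, and 8 of the 11 members that reached the cutoff in every library were higher. All-gene calls in this comparison depended on scaling, with 47.0% of calls higher in ML under TMM, 36.8% with DESeq2-type size factors and 72.7% on library totals alone, while the members' counts stayed at 18 higher and 0 lower under these.

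Against M5 alone the compounds gave different counts. Of the 27 members, 6 rose and 2 fell in ML, against 33.6% and 34.3% of all genes tested, with a median log2 fold change of 0.17 for the members and -0.00 for all genes. In MR, 2 rose and 16 fell, against 34.1% and 38.0% of all genes, with medians of -0.92 and -0.05. On library totals alone, 37.4% of all calls in MR against M5 were higher, and 47.3% under TMM, while the members stayed at 2 and 16. With DESeq2-type size factors 2 rose and 14 fell in MR, and in a fit of only MR and M5 2 rose and 13 fell. Both comparisons use the same M5 libraries, so their values stand side by side and no overlap is drawn from them. Among the 11 members that reached the cutoff in every library, 4 rose and 1 fell in ML, and 2 rose and 7 fell in MR.

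**Figure D2:**
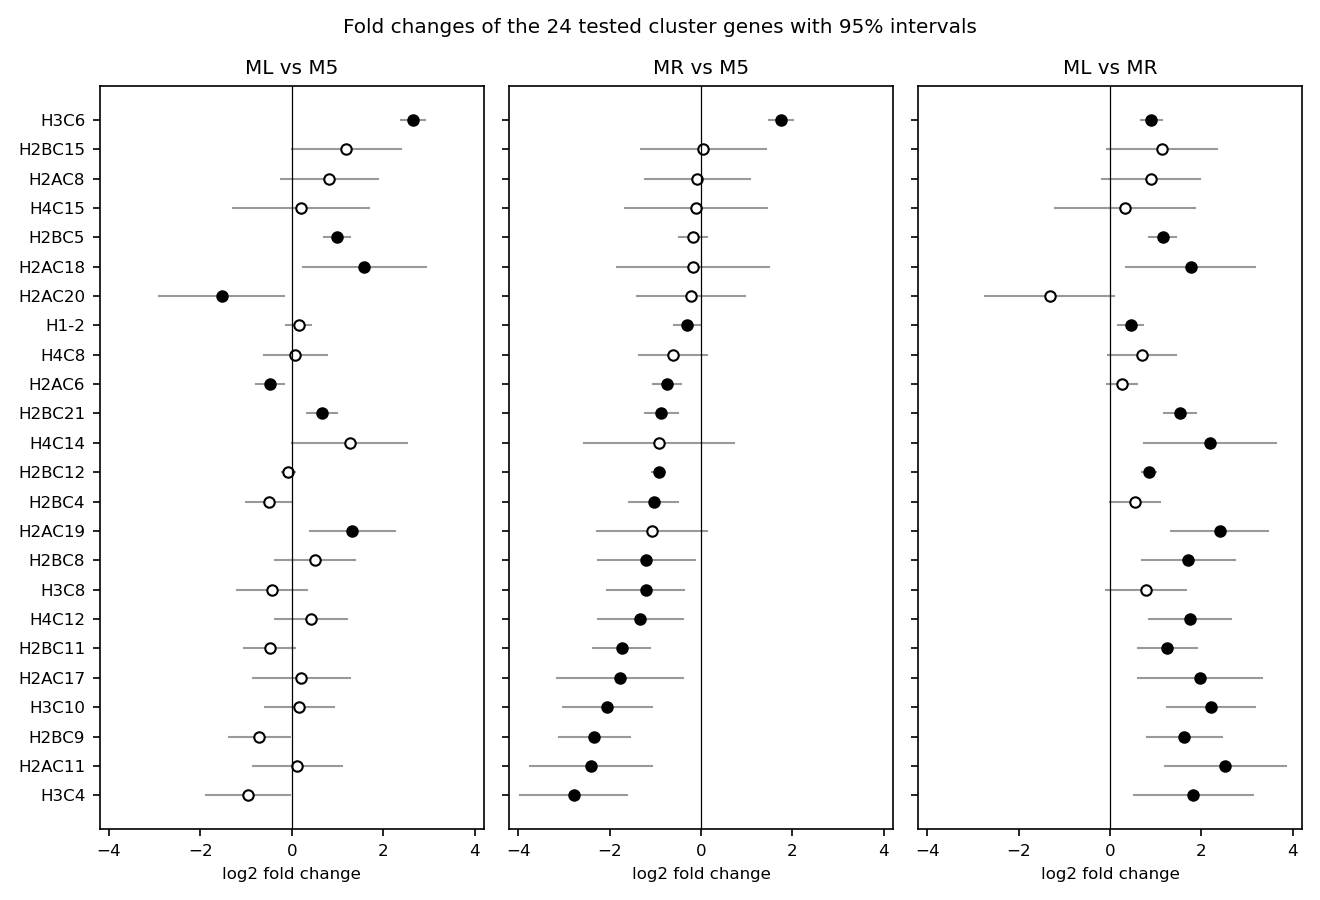
Points give the fitted log2 fold change and lines the 95% interval for the 24 tested cluster genes in ML against M5 (left), MR against M5 (middle) and ML against MR (right); filled points passed edgeR's quasi-likelihood test at an adjusted p under 0.05. H3C6 leads the left and middle panels at 2.65 and 1.75, and H2AC20 is the only point below 0 on the right, where it did not pass the test.

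M5 against WT gave 0 higher and 9 lower members of 27, against 28.3% and 26.9% of all genes tested, by edgeR's quasi-likelihood test. At an unadjusted p under 0.05, 0 were higher and 10 lower, DESeq2 called 0 and 8, and limma on log2(FPKM + 1) 0 and 12. The medians were -0.40 for the members and -0.02 for all genes. H1-2, H1-10, H2AC6, H2BC5, H2BC12, H3C8 and H3C10 were among those that fell. On library totals alone, 31.5% of all calls were higher, against 51.3% under TMM, and 10 members were lower.

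H3C6 encodes H3 and was the member with the largest rise after each compound. It stood at 12.4, 13.6 and 12.8 CPM in ML, 6.39, 7.55 and 6.76 in MR, 1.98, 2.09 and 2.09 in M5 and 2.12, 2.00 and 2.12 in WT. The ML, MR and M5 libraries did not overlap, and M5 and WT did. Its log2 fold change was 2.65 (SE 0.13) in ML against M5, with an edgeR adjusted p of 2.06e-15, and 1.75 (SE 0.13) in MR against M5, with an edgeR adjusted p of 8.3e-12. ML exceeded MR by 0.90 (SE 0.11, edgeR adjusted p 6.16e-07), and M5 differed from WT by -0.02 with a 95% interval of -0.31 to 0.27. H3C6 made up 16.7% ± 0.970 of the cluster CPM in ML, 16.7% ± 1.98 in MR, 3.23% ± 0.0988 in M5 and 2.67% ± 0.145 in WT. Per length its level was 4.68 FPKM in ML, 2.35 in MR, 0.769 in M5 and 0.846 in WT, counted over 2700 bases.

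The other tested H3 genes were low and fell in MR. H3C10, another H3 gene, stood at 0.553, 0.508 and 0.484 CPM in ML, 0.0904, 0.118 and 0.117 in MR, 0.401, 0.467 and 0.509 in M5 and 0.639, 0.882 and 1.22 in WT. All MR libraries lay below all others. The log2 fold changes were -2.05 (SE 0.47) in MR against M5 (edgeR adjusted p 0.000436), 2.21 (SE 0.47) in ML against MR (edgeR adjusted p 0.000535) and -0.99 in M5 against WT, a call that was lost without WT replicate 3 (edgeR adjusted p 0.125) or M5 replicate 1 (0.0617). H3C8 averaged 0.394 ± 0.0505 CPM in ML, 0.227 ± 0.0654 in MR, 0.530 ± 0.0548 in M5 and 1.23 ± 0.365 in WT (SD, n = 3 each). It fell by 1.21 on the log2 scale in MR against M5 and by 1.21 in M5 against WT. H3C4, chosen after its values were seen, had the largest fitted fall in MR against M5, at -2.78 (SE 0.57), with 0.0692 CPM in MR and 0.494 in M5; RefSeq has it overlapping H2AC7.

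H2BC12, an H2B gene and the highest cluster gene in CPM and FPKM, stood at 30.3, 28.0 and 32.0 CPM in ML, 16.7, 14.8 and 18.5 in MR, 32.1, 33.1 and 30.0 in M5 and 36.0, 36.7 and 34.7 in WT. The MR libraries lay below all others, the ML and M5 libraries overlapped, and the WT libraries lay above the rest. H2BC12 fell by 0.93 on the log2 scale in MR against M5 (SE 0.07, edgeR adjusted p 1.61e-11) and was 0.85 higher in ML than in MR (SE 0.07, edgeR adjusted p 1.3e-09). ML differed from M5 by -0.08, with a 95% interval of -0.21 to 0.06. The fall of 0.17 in M5 against WT had an edgeR adjusted p of 0.0268 and was lost without WT replicate 1 (0.0602) or 2 (0.0684), M5 replicate 1 (0.0526) or 3 (0.131), and in DESeq2 (0.0578). RefSeq has H2BC12 overlapping H4C9, an H4 gene.

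H2BC21 and H2BC5, other H2B genes, rose in ML and not in MR. H2BC21 stood at 4.42, 5.05 and 4.64 CPM in ML, 1.54, 1.68 and 1.63 in MR, 2.65, 3.00 and 3.24 in M5 and 2.53, 2.78 and 2.55 in WT. Its ML libraries lay above and its MR libraries below all others. The log2 fold changes were 0.67 (SE 0.16) in ML against M5, -0.87 (SE 0.17) in MR against M5 and 1.54 (SE 0.17) in ML against MR, with edgeR adjusted p of 0.000676, 9.02e-05 and 1.37e-07. H2BC5 stood at 6.55, 7.26 and 6.49 CPM in ML, 2.62, 3.27 and 3.20 in MR, 3.42, 3.68 and 3.16 in M5 and 5.01, 5.16 and 4.37 in WT. ML was highest, MR and M5 overlapped, and WT lay between. H2BC5 rose by 0.98 (SE 0.14, edgeR adjusted p 1.01e-06) in ML against M5, and the MR difference from M5 was -0.17 with a 95% interval of -0.48 to 0.13. RefSeq has H2BC5 overlapping H2BC6-AS1 and LARP1P1.

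H2BC9, H2BC11 and H2BC4, further H2B genes, fell in MR. H2BC9 stood at 0.967, 0.706 and 0.712 CPM in ML, 0.0904, 0.384 and 0.291 in MR, 1.496, 1.15 and 1.26 in M5 and 1.64, 1.45 and 1.03 in WT. Its MR libraries lay below all others, and its ML libraries lay between those of MR and M5. It fell by 2.33 on the log2 scale in MR against M5 (SE 0.38, edgeR adjusted p 6.26e-06), and the ML difference of -0.71 had an edgeR adjusted p of 0.0543. H2BC11 averaged 1.01 ± 0.234 CPM in ML, 0.423 ± 0.118 in MR, 1.41 ± 0.227 in M5 and 1.96 ± 0.0698 in WT, and fell by 1.73 (SE 0.30) in MR against M5. H2BC4 averaged 1.48 ± 0.173 CPM in ML, 1.01 ± 0.232 in MR, 2.09 ± 0.437 in M5 and 2.76 ± 0.737 in WT, and fell by 1.04 (SE 0.26) in MR against M5. ML exceeded MR by 1.25 for H2BC11 and by 1.62 for H2BC9 (edgeR adjusted p 0.00249 and 0.00215), and by 0.54 for H2BC4, which did not pass the test.

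**Figure D3:**
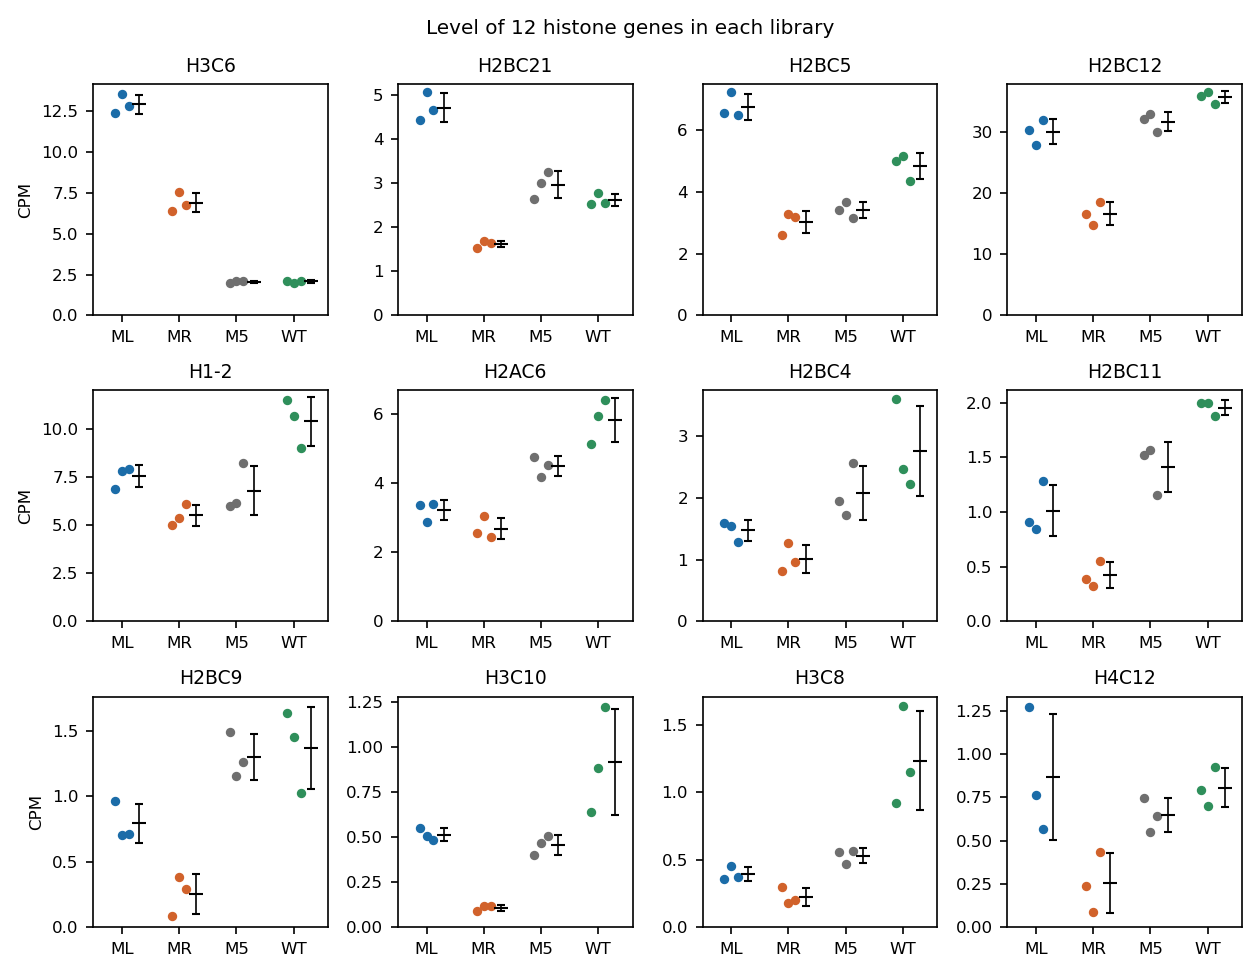
Points give the level in CPM of 12 histone genes in each library of ML, MR, M5 and WT, and the bars beside them the mean and SD (n = 3 each); each panel has its own axis from 0. H3C6 is highest in ML and next in MR, H2BC21 and H2BC5 are highest in ML, and H2BC12, H2BC9, H3C10 and H4C12 are lowest in MR.

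H2AC6, the highest H2A gene, fell after both compounds. It stood at 3.37, 2.88 and 3.39 CPM in ML, 2.56, 3.04 and 2.45 in MR, 4.76, 4.18 and 4.53 in M5 and 5.14, 5.94 and 6.40 in WT. ML and MR overlapped each other and lay below M5, which lay below WT. H2AC6 fell by 0.48 (SE 0.15, edgeR adjusted p 0.00656) in ML and by 0.74 (SE 0.15, edgeR adjusted p 0.000133) in MR against M5, and ML differed from MR by 0.26 with a 95% interval of -0.07 to 0.59. The fall of 0.38 in M5 against WT (edgeR adjusted p 0.0288) was lost without WT replicate 2 (0.0716) or 3 (0.13), without M5 replicate 2 (0.102) or 3 (0.0572), and with no filter on low counts (0.0696). H2AC11 averaged 0.472 ± 0.292 CPM in ML, 0.0796 ± 0.0633 in MR, 0.433 ± 0.101 in M5 and 0.661 ± 0.192 in WT. It fell by 2.40 (SE 0.64, edgeR adjusted p 0.00184) in MR against M5, and ML exceeded MR by 2.52 (SE 0.64, edgeR adjusted p 0.00285) although 1 ML library, at 0.138 CPM, lay below the highest MR library at 0.151.

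Other H2A calls rest on few counts, and the genes were chosen after their values were seen. H2AC18 and H2AC19 reached the cutoff in every library of ML and of no other group, so they were tested through the group in which they were high, and their values are a description. H2AC19 averaged 0.638 ± 0.230 CPM in ML, 0.118 ± 0.0779 in MR, 0.252 ± 0.0329 in M5 and 0.221 ± 0.0793 in WT. The log2 difference of ML from M5 was 1.33 (SE 0.45), whose call was lost without ML replicate 2 (edgeR adjusted p 0.0945), and that of ML from MR was 2.40 (SE 0.52). The H2AC18 difference of ML from M5 was 1.59, a call lost without M5 replicate 2 (edgeR adjusted p 0.0902) or 3 (0.133), without ML replicate 1 (0.0671) or 3 (0.0945), and in DESeq2 (0.0758). H2AC18 and H2AC19 are near-identical copies, and how the counting split reads between them is uncertain.

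Some cluster genes start close together on opposite strands. Pairs were sought only among the 59 members with a RefSeq promoter window. Of these, 9 H2A genes lay within 1000 bases of an H2B gene head to head, with 194 to 248 bases between starts. Both genes were tested in 4 of these pairs. H2AC12, which RefSeq places near H2BC12, had no such window and was not searched. H2AC20 and H2BC21 start 236 bases apart, and the H2BC21 promoter printed above holds that stretch. H2AC20 averaged 0.112 ± 0.0968 CPM in ML, 0.284 ± 0.234 in MR, 0.332 ± 0.132 in M5 and 0.706 ± 0.0941 in WT, and fell by 1.54 in ML against M5 (edgeR adjusted p 0.0433) while H2BC21 rose by 0.67. That H2AC20 call was lost without ML replicate 3 (0.184), M5 replicate 1 (0.158) or M5 replicate 3 (0.0768) and with the replicate block (0.0582). H2AC20 reached the cutoff in every library of WT and of no other group, so it was tested through the group in which it was high. It had 6, 6 and 0 counts in the ML libraries, and its values are a description. For H2AC6 and H2BC4, 246 bases apart, the differences of ML from M5 were -0.48 and -0.49, and those of MR from M5 were -0.74 and -1.04. For H2AC11 and H2BC11, 248 bases apart, they were 0.12 and -0.48 in ML and -2.40 and -1.73 in MR. For H2AC8 and H2BC8, 233 bases apart, they were 0.82 and 0.51 in ML, neither of which passed the test, and -0.08 and -1.19 in MR. The H2BC8 fall in MR (edgeR adjusted p 0.0407) was lost without M5 replicate 1 (0.0543), 2 (0.116) or 3 (0.0526), without MR replicate 1 (0.0946) or 2 (0.16), and in DESeq2 (0.0816).

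H4 genes were low, with no library above 1.27 CPM for any of them. H4C12 stood at 1.27, 0.762 and 0.570 CPM in ML, 0.241, 0.0885 and 0.437 in MR, 0.748, 0.550 and 0.643 in M5 and 0.792, 0.700 and 0.925 in WT. The MR libraries lay below all others. H4C12 fell by 1.33 (SE 0.45, edgeR adjusted p 0.011) in MR against M5, a call lost without MR replicate 2 (0.0733), and ML exceeded MR by 1.75 (SE 0.44, edgeR adjusted p 0.00258). H4C8 averaged 0.721 ± 0.0948 CPM in ML, 0.444 ± 0.0589 in MR, 0.683 ± 0.127 in M5 and 0.593 ± 0.197 in WT, and its MR difference from M5 of -0.62 had a 95% interval of -1.36 to 0.12. H4C14 was 2.18 higher in ML than in MR (edgeR adjusted p 0.015), which was lost without ML replicate 3 (0.197) or MR replicate 2 (0.0765). H4C14 reached the cutoff in every library of no group. H4C15, whose promoter window holds the same letters, differed by 0.32 in ML against MR (edgeR adjusted p 0.77). Whether reads were split between these genes was not tested.

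H1-2, the linker histone gene of the clusters with the most counts, stood at 6.91, 7.82 and 7.95 CPM in ML, 5.03, 5.40 and 6.12 in MR, 5.99, 6.18 and 8.26 in M5 and 11.5, 10.7 and 9.02 in WT. WT lay above all other groups, and the MR and M5 libraries overlapped. H1-2 fell by 0.61 (SE 0.13, edgeR adjusted p 0.000226) in M5 against WT and was 0.45 higher in ML than in MR (SE 0.13, edgeR adjusted p 0.00881). The fall of 0.30 in MR against M5 (edgeR adjusted p 0.0461) was lost without M5 replicate 3 (0.358), MR replicate 1 (0.152) or MR replicate 2 (0.103), in DESeq2 (0.101), with DESeq2-type size factors in edgeR (0.0772) and with the replicate block (0.0508). H1-10 averaged 80.8 ± 1.54 CPM in ML, 71.3 ± 1.71 in MR, 76.3 ± 2.18 in M5 and 96.7 ± 4.69 in WT. It fell by 0.34 (SE 0.04) in M5 against WT, and its difference of -0.10 in MR against M5 was called (edgeR adjusted p 0.0407) but lost without M5 replicate 1 (0.153) or 3 (0.0591) or MR replicate 2 (0.122) or 3 (0.109), and in DESeq2 (0.233). H1-10-AS1 fell by 1.32 in MR against M5 (SE 0.39, edgeR adjusted p 0.00433), and its fall of 0.90 in M5 against WT (edgeR adjusted p 0.0221) was lost without WT replicate 1 (0.172) or M5 replicate 2 (0.123).

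Set against untreated cells, 5 members were higher and 11 lower in ML, against 36.9% and 37.1% of all genes tested, and 1 was higher and 18 lower in MR, against 37.6% and 40.9%. Medians were -0.26 in ML and -1.14 in MR, against -0.02 and -0.06 over all genes. H3C6, H2BC21 and H2BC5 were among those higher in ML than in WT, H3C6 by 2.63 (SE 0.12), H2BC21 by 0.85 (SE 0.16) and H2BC5 by 0.48 (SE 0.14). H3C6 was the only member higher in MR than in WT, by 1.73 (SE 0.13), and the largest differences below WT were those of H3C10 at -3.04 and H2AC11 at -3.01. On library totals alone, 38.6% of all calls were higher in ML against WT, with 49.9% under TMM, and 33.7% in MR against WT, with 47.8% under TMM.

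Calls were also counted by length. Lengths implied by the deposited FPKM values exceeded 800 bases for 7 of the 24 tested cluster genes, H2BC4, H2BC5, H2BC12, H2BC21, H3C4, H3C6 and H4C15. Of these 7, 3 rose in ML against M5, with a median log2 fold change of 0.21 over the 7, and of the 17 shorter ones 2 rose and 2 fell, with a median of 0.17. In MR against M5, 1 of the 7 rose and 4 fell, with a median of -0.87, and 10 of the 17 fell, with a median of -1.07. Over all genes tested, 33.6% rose and 34.3% fell in ML against M5, and 34.1% rose and 38.0% fell in MR against M5. Nothing particular to length is therefore read from these counts. The labels used here do not state whether poly(A) selection was used, and none of 22 RNAs known to be made without a poly(A) tail, such as RMRP and RN7SK, matched a symbol in the table, so the share of tailless histone mRNA in these counts was not tested.

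Genes of S phase fell in both compound groups. Of 35 genes of S-phase entry and DNA replication, 35 fell in ML against M5, with a median log2 fold change of -1.01, and 35 fell in MR against M5, with a median of -1.08. Over all genes tested, 34.3% fell in ML and 38.0% in MR against M5. The list summed to 2802 to 2822 CPM in ML, 2671 to 2729 in MR, 5148 to 5251 in M5 and 5659 to 5762 in WT. Between ML and MR, 13 of the 35 were higher in ML and 4 lower, against 18.8% and 21.2% of all genes, with a median of 0.08. E2F1, a transcription factor of S-phase entry, averaged 12.5 ± 0.880 CPM in ML, 11.6 ± 1.00 in MR, 52.8 ± 2.05 in M5 and 58.4 ± 3.15 in WT, and E2F2, of the same family, fell by 3.37 in ML and by 3.72 in MR against M5. CCNE1, the cyclin that drives S-phase entry, fell by 2.01 in ML and by 1.44 in MR against M5, and rose by 0.57 in M5 against WT. In M5 against WT, 3 of the 35 rose and 26 fell, against 28.3% and 26.9% of all genes, with a median of -0.19.

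**Figure D4:**
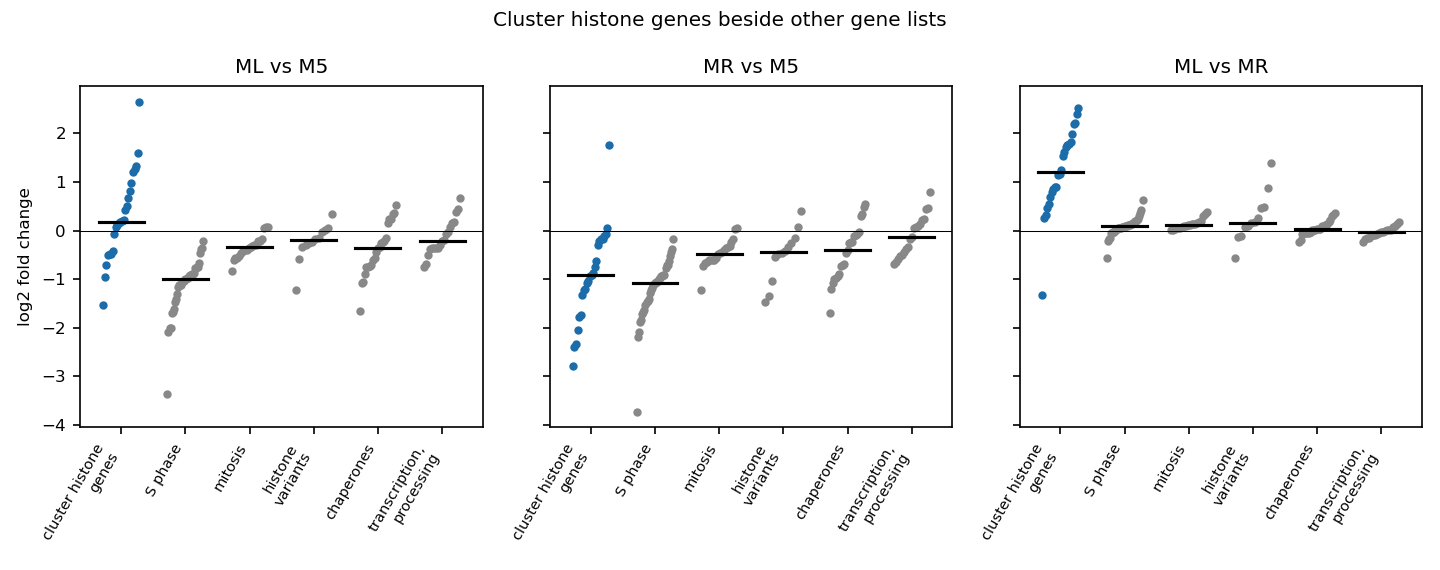
Points give the fitted log2 fold change of each tested gene in ML against M5, MR against M5 and ML against MR, for the 24 cluster histone genes (blue) and 5 gene lists (grey), and lines give each list's median. The S-phase genes lie below 0 in the left and middle panels with medians of -1.01 and -1.08, while the 24 cluster genes have medians of 0.19 and -0.92.

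Of 20 mitosis genes, 17 fell in ML against M5 and 18 fell in MR against M5, and 12 were higher in ML than in MR. Over all genes tested, 34.3% and 38.0% fell in ML and MR against M5, and 18.8% were higher in ML than in MR. KIF20A, a mitotic kinesin, averaged 69.1 CPM in ML, 52.8 in MR, 123 in M5 and 161 in WT. Of 12 tested genes on a list of histone variants and other histone genes outside the symbol rule, 1 rose and 7 fell in ML, and 9 fell in MR, against M5. Over all genes, 33.6% rose and 34.3% fell in ML, and 34.1% rose and 38.0% fell in MR. MACROH2A2, a variant with a large extra domain, fell by 1.22 in ML and by 1.48 in MR. H2AX, the variant phosphorylated at DNA breaks, fell by 0.58 in ML and by 1.04 in MR, and H2AW rose by 0.33 in ML, a call lost without ML replicate 3 (edgeR adjusted p 0.0514), and fell by 0.55 in MR. H3-3B, which encodes the replacement histone H3.3, fell by 0.29 in ML and by 0.16 in MR against M5.

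Of 21 genes of histone gene transcription and mRNA processing, 19 matched a symbol, and 5 rose and 11 fell in ML and 6 rose and 10 fell in MR against M5. The shares of all genes were 33.6% risen and 34.3% fallen in ML, and 34.1% and 38.0% in MR. SLBP, which binds the stem-loop, stood at 55.7, 55.6 and 55.5 CPM in ML, 58.2, 59.0 and 60.9 in MR, 91.9, 93.3 and 94.7 in M5 and 93.9, 93.3 and 94.4 in WT. ML and MR lay below M5 and WT without overlap. SLBP fell by 0.75 (SE 0.04) in ML and by 0.65 (SE 0.04) in MR against M5, and ML differed from MR by -0.09 (edgeR adjusted p 0.0501). NPAT, the coactivator of histone genes at their nuclear body, averaged 33.9 ± 2.78 CPM in ML, 34.0 ± 1.24 in MR, 32.2 ± 2.36 in M5 and 31.5 ± 2.28 in WT, and was not called in ML against M5, MR against M5 or ML against MR. HINFP rose by 0.38 in ML and by 0.46 in MR against M5, and POU2F1 by 0.45 and 0.44. ZNF473, which takes part in histone mRNA 3′ processing, fell by 0.69 in ML and by 0.70 in MR, and TUT7, which adds uridines to histone mRNA before decay, rose by 0.67 and 0.79. CASP8AP2 fell by 0.29 in ML against M5.

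Of 23 histone chaperone and import genes, 6 rose and 17 fell in ML and 4 rose and 17 fell in MR against M5. Among all genes tested, 33.6% rose and 34.3% fell in ML, and 34.1% rose and 38.0% fell in MR. CHAF1B, a subunit of the factor that deposits H3 and H4 at replication forks, fell by 1.66 in ML and by 1.69 in MR, and TONSL, which reads new H4 at forks, fell by 1.07 and 1.21. SUPT6H, a chaperone of transcribed chromatin, rose by 0.52 and 0.48, and UBN1, a partner of HIRA in H3.3 deposition, rose by 0.35 and 0.55. Between ML and MR, 7 of the 23 were higher in ML and 2 lower, against 18.8% and 21.2% of all genes. Their median was 0.02, while the 27 histone members had a median of 1.14.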

How the data were processed

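RNA sequencing of 12 HaCaT libraries was deposited as a table of raw counts and of FPKM values per gene symbol. Per the submitters' processing notes, HISAT2 and HTSeq were used, with no versions named. The labels used here state no genome build, strand setting or poly(A) selection. The FPKM values deposited by the authors equal the count divided by gene length and library total for all 20422 genes checked, at a tolerance of 0.001. Library totals were 35110519 to 37520999, and low genes carry counting error as well as replicate spread.

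Members and gene lists were chosen with earlier results of these data known. Groups follow the labels. Counts were filtered with filterByExpr, scaled by TMM and fitted over all 12 libraries with edgeR's quasi-likelihood test (edgeR 4.0.16, R 4.3.3). Adjusted p are Benjamini-Hochberg over all 14207 genes tested, and calls are at 0.05. All pairs of the 4 groups were compared. Named genes were the 3 members of each family with the highest mean FPKM, the called members with the largest changes at a mean of at least 1 CPM in a group, H1-10, SLBP, NPAT, HINFP, CASP8AP2 and, in each list, the called genes with the largest changes. H2AC18, H2AC19, H2AC20, H2BC8, H3C4 and H4C15 fall outside this rule and were chosen after their values were seen. Some results are not reported here. Alternatives were other scalings and filters, DESeq2 1.42.0, limma 3.58.1 on log2(FPKM + 1) and log2(FPKM + 0.1), a replicate block, fits of only the groups compared, and leaving out each library. The fit was tested on simulated data. Lists covered histone variants, transcription and processing, chaperones, S phase, mitosis, RNAs without a poly(A) tail and cell type markers. Promoters and positions are from RefSeq (GRCh38.p14), and transcripts from GENCODE release 29.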

Additional observations from a re-analysis of the deposited data

How the results depend on the processing

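No called member result reversed direction under any alternative in which its gene was tested. Over 88 called results for members, 68 kept their call under every setting in which the gene was tested, and 20 lost it under at least 1. A setting whose filter removed a gene was not counted for that gene, so low genes met fewer settings. The 2 members lower in ML than in M5 became 4 on library totals alone, 1 with a filter of 1 CPM, 1 with the replicate block and 5 with limma on either scale, and 1 to 3 when 1 library was left out. With the filter of 1 CPM, which left 10 members tested, 5 were lower in MR than in M5, 8 higher in ML than in MR, 6 lower in ML than in WT and 8 lower in MR than in WT; with no filter, 28 were lower in MR than in WT. Leaving out 1 library gave 5 to 8 higher in ML than in M5, 12 to 14 lower in MR than in M5, 15 to 18 higher in ML than in MR, 7 to 8 lower in M5 than in WT, 5 to 6 higher and 9 to 10 lower in ML than in WT, and 16 to 19 lower in MR than in WT. On library totals alone the family sums were 5.79 CPM for H2A in ML, 3.55 for H2A in MR, 9.77 for H2A in WT, 55.5 for H2B in WT and 6.82 for H3 in MR. The cause of these shifts was not tested beyond the genes each filter removes. The labels do not say whether replicate numbers pair the libraries. Correlations of same-numbered deviations ran from -0.181 to 0.294 over 18 pairs, 5 of them over 0.1. For 6 of the 12 libraries the highest correlation with another group was with a library of the same number. Deviations from means of 3 libraries cannot show whether cultures were shared. With the replicate block, 6 members were higher and 1 lower in ML than in M5, 2 and 15 in MR than in M5, and 18 and 0 in ML than in MR. On library totals alone the median log2 fold change of all genes was -0.19 in MR against M5, -0.14 in M5 against WT, 0.10 in ML against MR, -0.18 in ML against WT and -0.31 in MR against WT. Depth limits the 40 untested members, which had at most 16 counts in a library.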
